A study of Mus musculus with 21 samples.

Results

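The genes described here are 44 genes for the chaperones, folding enzymes and degradation machinery of the endoplasmic reticulum (ER), read in 4 groups of hypothalamic neurons. They were taken by symbol from a list made for this report, and all 44 were present in the deposited tables of 35266 genes. Fluorescent neurons of the arcuate nucleus were picked manually from male mice on a C57BL/6J background, aged postnatal day 46 to 56, and each library came from 44 to 214 cells of 1 mouse. AGRP neurons came from NPY-hrGFP mice, in which the Npy promoter drives a humanized Renilla green fluorescent protein, and were collected from fed mice (n = 5) or from mice given only water for 24 h (food deprived, FD; n = 6). POMC neurons came from Pomc-GFP mice, in which the Pomc promoter drives the reporter, with 5 fed and 5 FD mice. Fed mice ate ad libitum, and mice of both conditions were housed alone in a fresh cage for that time, so all groups share the single housing, the dissociation and the sort.

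The ER folds nearly all secreted and membrane proteins. Hsp70 and Hsp90 family chaperones and their J-domain cochaperones hold unfolded chains, the lectin chaperones calnexin and calreticulin hold glycoproteins, and protein disulfide isomerases form and rearrange disulfide bonds. Chains that fail to fold are recognized, passed through a ubiquitin ligase complex in the membrane, extracted by the Vcp ATPase and degraded by the proteasome, a route called ER-associated degradation (ERAD). AGRP and POMC neurons are peptide-secreting neurons, and unfolded chains in the ER activate the sensors Ire1, Atf6 and Perk, whose transcription factors raise many of these genes.

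Libraries held 9822298 to 37663979 counts assigned to genes (median 19189780), so that 3 counts corresponded to 0.0797 to 0.305 CPM (a count scaled to the library's total). *Agrp* was at a mean of 3455 TPM (a level per transcript length, scaled to the same total in each library) in fed AGRP neurons and 15.5 TPM in fed POMC neurons, and *Pomc* was at 43.5 and 16029 TPM, respectively. Of 19 markers of astrocytes, oligodendrocytes, microglia, endothelial cells and tanycytes, *Tmem119* and *Cldn5* did not exceed 0.07 TPM in any library, and *Vim* and *Mbp* were the most abundant. Values below per library are normalized CPM, that is CPM after the trimmed-mean scaling used in the test.

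In AGRP neurons, food deprivation was accompanied by higher transcript levels of 22 of the 44 genes, and none was lower (edgeR quasi-likelihood test, q under 0.05, where q is the Benjamini-Hochberg adjusted p over all 16513 genes tested). Among all genes tested, 5.87% were called higher and 4.43% lower. The 22 genes included the main luminal chaperones *Hspa5*, *Hyou1* and *Hsp90b1*, both lectin chaperones, 5 of the 6 genes for J-domain proteins and their partner, and the disulfide isomerases *P4hb*, *Pdia3*, *Pdia4* and *Pdia6*. In the ERAD membrane complex 0 of 8 genes were called. All 44 genes passed the filter on low counts. The median log2 fold change of the 44 genes was 0.71 (a 1.64-fold change), beside −0.02 over all genes tested, and 38 of 44 had a positive sign. Of the 44 genes, 9 met the stricter rule for a differentially expressed gene (DEG: q under 0.05, log2 fold change over 1, mean over 20 CPM in at least 1 group), as did 2.53% of all genes in that direction. In 15 of the 44 genes, every FD library lay above every fed library, which held for 4.08% of all genes. The list was chosen with results of these libraries known, so its direction is not independent evidence. In pooled sorted cells, a change in the share of cells with a transcript and a change in the level per cell cannot be told apart.

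**Figure D1:**
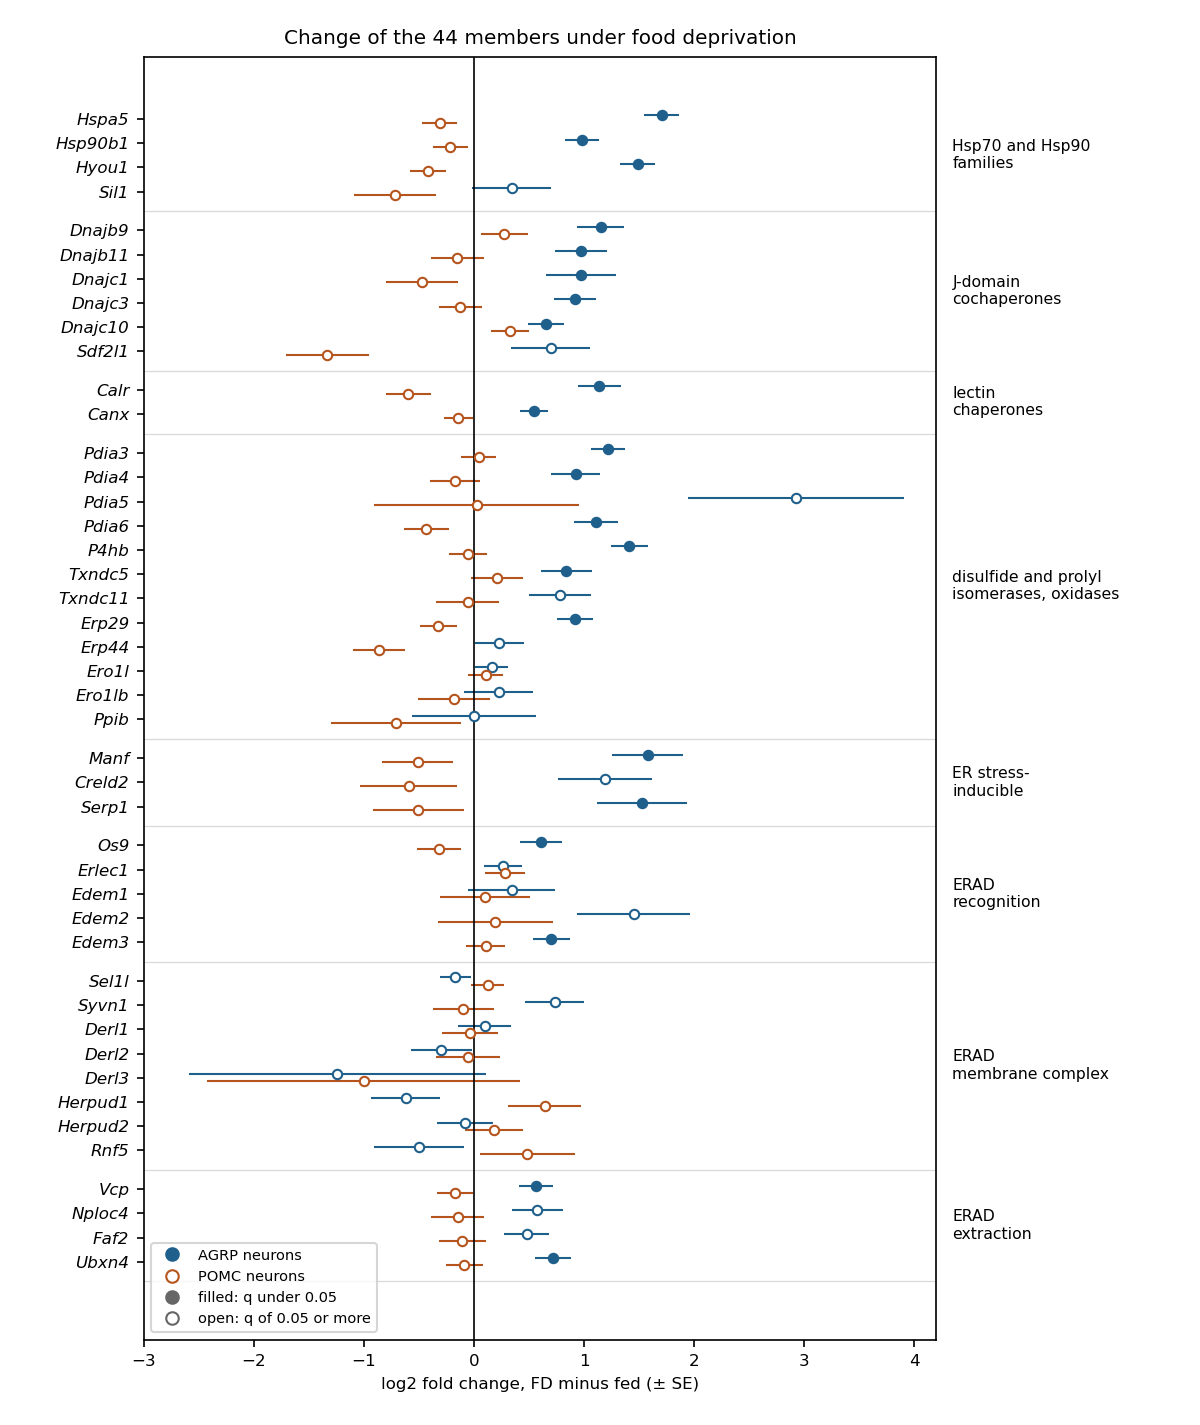
Log2 fold change (FD minus fed, x axis) of each of the 44 genes, in rows grouped by role, for AGRP neurons (blue) and POMC neurons (orange); bars are 1 SE and filled points have q under 0.05. The 22 filled points are all AGRP changes to the right of 0, and none lies in the ERAD membrane complex.

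Of the 4 genes for Hsp70 and Hsp90 family chaperones and their exchange factor, 3 rose, and *Hspa5* and *Hyou1* had the 2 smallest q values of the 44 genes. *Hspa5* (ENSMUSG00000026864, chr2:34771970-34777547 in mm10) encodes BiP, the ER Hsp70 that also keeps the stress sensors inactive. Its normalized CPM in the 5 fed AGRP libraries was 730.0, 657, 506, 598 and 711, and in the 6 FD libraries it ran from 1543 through a median of 2090 to 2644. The lowest FD library was therefore above the highest fed library and *Hspa5* rose 3.27-fold (log2 1.71 ± 0.16 SE, q = 1.89e-08). *Hyou1* (chr9:44379490-44392369), a large Hsp70-related protein that exchanges nucleotide on BiP, was at 215, 224, 203, 247 and 235 in fed libraries and at 493 to 763 (median 636) in FD libraries. It rose 2.81-fold (log2 1.49 ± 0.16, q = 1.57e-07), and again every FD library was above every fed one. *Hsp90b1* (chr10:86690840-86705509), the ER Hsp90, rose 1.98-fold (log2 0.98 ± 0.15, q = 4.88e-05), from 1248–1581 in fed to 2246–3385 (median 2594) in FD libraries. It was the most abundant of the 44 genes, at a mean of 2040 TPM over the 21 libraries. Of its annotated exon bases, 21.6% are shared with other annotated genes, and counting was without strand. *Sil1*, the other nucleotide exchange factor for BiP, was at 10.3, 17.5, 16.2, 17.8 and 16.0 in fed and 6.80 to 37.9 (median 16.0) in FD libraries, and the groups overlapped (log2 0.34 ± 0.36, q = 0.641).

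Genes of this kind often carry the ER stress response element (ERSE) near their start, which Atf6 binds beside the factor NF-Y. Promoter windows from RefSeq (GRCm38.p6, 250 bases before to 50 after the annotated start) were at hand for 37 of the 44 genes, 2 of them under newer symbols. They were searched on both strands for ERSE (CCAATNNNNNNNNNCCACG), for ERSE-II (ATTGGNCCACG) and for the Xbp1-bound unfolded protein response element (UPRE, TGACGTGG), with no mismatch allowed. No match overlapped another. ERSE was in 10 of these 37 genes, and in 0.137% of the 27025 genes with a window, which is 37 genes in all. Because genes of this kind are known to carry ERSE, this difference in share is not a result of these libraries. ERSE-II was in 2 of the 37 genes (0.0444% of all genes), and UPRE was in 3 (*Txndc5*, *Txndc11* and *Vcp*; 0.714% of all genes). The *Hspa5* match lies within an annotated exon and is given alone below. The stretch before the start that holds no annotated exon is printed for *Hsp90b1*, *Canx* and *Calr*, the 3 called genes with the highest TPM whose ERSE lies in such a stretch, and for *Herpud1*, which held ERSE-II and was not called. Letters are lower case with the matches in capitals. The *Hsp90b1* stretch held 2 matches, 1 on each strand, and the *Calr* match lies on the opposite strand.
*Hsp90b1*, chr10:86705510-86705694, minus strand: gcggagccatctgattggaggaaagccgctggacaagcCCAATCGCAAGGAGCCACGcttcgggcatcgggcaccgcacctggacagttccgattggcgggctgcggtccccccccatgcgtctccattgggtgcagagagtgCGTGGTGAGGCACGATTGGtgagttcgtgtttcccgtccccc
*Canx*, chr11:50325674-50325923, minus strand: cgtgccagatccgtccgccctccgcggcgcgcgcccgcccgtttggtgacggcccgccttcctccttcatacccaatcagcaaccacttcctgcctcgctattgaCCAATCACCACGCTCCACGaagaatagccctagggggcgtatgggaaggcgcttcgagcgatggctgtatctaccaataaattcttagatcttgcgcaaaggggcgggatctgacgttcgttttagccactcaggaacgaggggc
*Calr*, chr8:84846935-84847181, minus strand: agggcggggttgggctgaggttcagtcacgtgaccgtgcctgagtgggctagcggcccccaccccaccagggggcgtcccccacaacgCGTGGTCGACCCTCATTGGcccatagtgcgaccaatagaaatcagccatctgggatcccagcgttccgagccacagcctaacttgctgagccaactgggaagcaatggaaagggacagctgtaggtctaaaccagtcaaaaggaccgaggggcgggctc
*Herpud1*, chr8:94386179-94386428, plus strand: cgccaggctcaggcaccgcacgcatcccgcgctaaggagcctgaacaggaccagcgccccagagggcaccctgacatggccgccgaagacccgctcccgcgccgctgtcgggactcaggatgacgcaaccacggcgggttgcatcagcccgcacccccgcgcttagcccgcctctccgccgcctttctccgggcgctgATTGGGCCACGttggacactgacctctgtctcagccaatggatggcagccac

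In the other 8 genes with ERSE or ERSE-II the matches alone are given, so that the fixed ends and the varying middle bases can be compared, and those that begin with CGTGG lie on the opposite strand.
*Hspa5*, chr2:34772025-34772043, ERSE, beginning 65 bases before the start: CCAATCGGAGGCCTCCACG
*Dnajb11*, chr16:22857852-22857862, ERSE-II, beginning 7 bases after the start: ATTGGCCCACG
*Dnajc3*, chr14:118937827-118937845, ERSE, beginning 105 bases before the start: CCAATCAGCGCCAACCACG
*Pdia6*, chr12:17266491-17266509, ERSE, beginning 98 bases before the start: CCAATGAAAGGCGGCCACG
*Ero1lb*, chr13:12565682-12565700, ERSE, beginning 201 bases before the start: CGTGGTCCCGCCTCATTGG
*Creld2*, chr15:88819520-88819538, ERSE, beginning 126 bases before the start: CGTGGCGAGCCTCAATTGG
*Syvn1*, chr19:6046532-6046550, ERSE, beginning 44 bases before the start: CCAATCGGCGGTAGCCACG
*Derl3*, chr10:75893242-75893260, ERSE, beginning 156 bases before the start: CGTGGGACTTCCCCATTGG
Of the 12 genes with ERSE or ERSE-II, 7 were called in AGRP neurons and their median log2 fold change was 0.95. Of the 25 without, 12 were called and the median was 0.70. *P4hb*, *Pdia3*, *Pdia4*, *Dnajb9* and *Serp1* were called without an exact match in this window, and *Ero1lb*, *Creld2*, *Syvn1*, *Derl3* and *Herpud1* had a match and were not called. These are matches of letters, and binding was not measured.

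J-domain proteins recruit BiP to its clients and start its ATP cycle, and 5 of 6 genes of this group rose. *Dnajb9* (ERdj4), which acts with ERAD and on the sensor Ire1, was at 63.1, 59.4, 57.7, 77.6 and 79.0 in fed and 113 to 245 (median 131) in FD libraries. No library overlapped, and it rose 2.22-fold (log2 1.15 ± 0.21, q = 0.00042). *Dnajb11* (ERdj3) rose 1.96-fold (log2 0.97 ± 0.23, q = 0.00601), although the fed replicate 5, at 85.4, exceeded the lowest FD library at 72.9. *Dnajc3* (p58IPK), a cochaperone and inhibitor of Perk, rose 1.89-fold (log2 0.92 ± 0.19, q = 0.00159), from 112–172 to 139–348. *Dnajc10* (ERdj5), a disulfide reductase in ERAD, had the smallest called change of the group (log2 0.65 ± 0.17, q = 0.01). *Dnajc1*, a membrane J-protein, was low, at 12.6–33.0 in fed and 22.9–68.6 in FD libraries (log2 0.97 ± 0.32, q = 0.0477). Its call was lost without any one of AGRP FD replicates 2 to 5, AGRP fed replicates 1 to 4 and 4 of the POMC libraries, with q up to 0.137. *Sdf2l1*, a partner of Dnajb11, was not called (log2 0.70 ± 0.36, q = 0.257), and FD replicate 4 stood at 71.4 beside 36.9 for the next library.

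Both lectin chaperones rose. *Calr* (calreticulin, chr8:84841850-84846934), the luminal one, was at 193, 169.9, 127, 204 and 259.7 in fed libraries and 303 to 539 (median 412) in FD libraries. Every FD library was higher than every fed one, and *Calr* rose 2.20-fold (log2 1.14 ± 0.20, q = 0.000211). *Canx* (calnexin), its membrane-anchored relative, was at 642–746 in fed and 801–1332 in FD libraries. It rose 1.46-fold (log2 0.54 ± 0.13, q = 0.00517), also without overlap.

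Of the 12 disulfide isomerases, oxidases and prolyl isomerase, 6 rose. *P4hb* (chr11:120560298-120573253) encodes the founding protein disulfide isomerase, and its normalized CPM was 119, 92.9, 112, 104 and 116 in fed libraries. In FD libraries it was 211 to 406 (median 251), a 2.66-fold rise (log2 1.41 ± 0.17, q = 1.58e-06). *Pdia3* (ERp57), which works on glycoproteins held by the lectin chaperones, was at 361–552 in fed and 754–1251 (median 1055) in FD libraries. It rose 2.33-fold (log2 1.22 ± 0.16, q = 3.61e-06). *Pdia6*, which also acts on the stress sensors, rose 2.15-fold (log2 1.11 ± 0.20, q = 0.000387), from 98.7–166 to 200.3–366. The groups did not overlap for any of these 3 isomerases. *Pdia4* (ERp72) rose 1.90-fold (log2 0.92 ± 0.22, q = 0.00571) with 1 fed library, at 79.4, above the lowest FD library at 75.1. *Erp29*, a luminal protein with a thioredoxin fold and no active-site cysteine pair, rose 1.89-fold (log2 0.92 ± 0.16, q = 0.000263), and 33.9% of its exon bases are shared with genes on the opposite strand. *Txndc5* (ERp46) rose 1.79-fold (log2 0.84 ± 0.23, q = 0.0166), with 15.9% of its exon bases so shared, and had q = 0.0538 without fed replicate 3.

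The remaining 6 genes of this role were not called. *Pdia5* had the largest fitted change of the 44 genes (log2 2.93 ± 0.98, q = 0.053), at 1.01, 0.055, 0.243, 1.18 and 5.09 in fed libraries and 3.46 to 29.0 (median 6.22) in FD libraries. The fed library at 0.055 held 1 count, and fed replicate 5 overlapped the FD range. The thiol oxidases *Ero1l* and *Ero1lb*, which reoxidize the isomerases, had log2 fold changes of 0.16 ± 0.15 (q = 0.597) and 0.22 ± 0.32 (q = 0.75). *Erp44*, which retains the oxidases and unassembled proteins, was at 0.23 ± 0.22 (q = 0.613), and *Txndc11* was at 0.78 ± 0.28 (q = 0.073). The prolyl isomerase *Ppib* was at 6.19 ± 2.65 CPM (SD, n = 5) in fed and 6.19 ± 2.41 (n = 6) in FD libraries, with 57.6% of its exon bases shared with *Snx22* on the opposite strand.

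**Figure D2:**
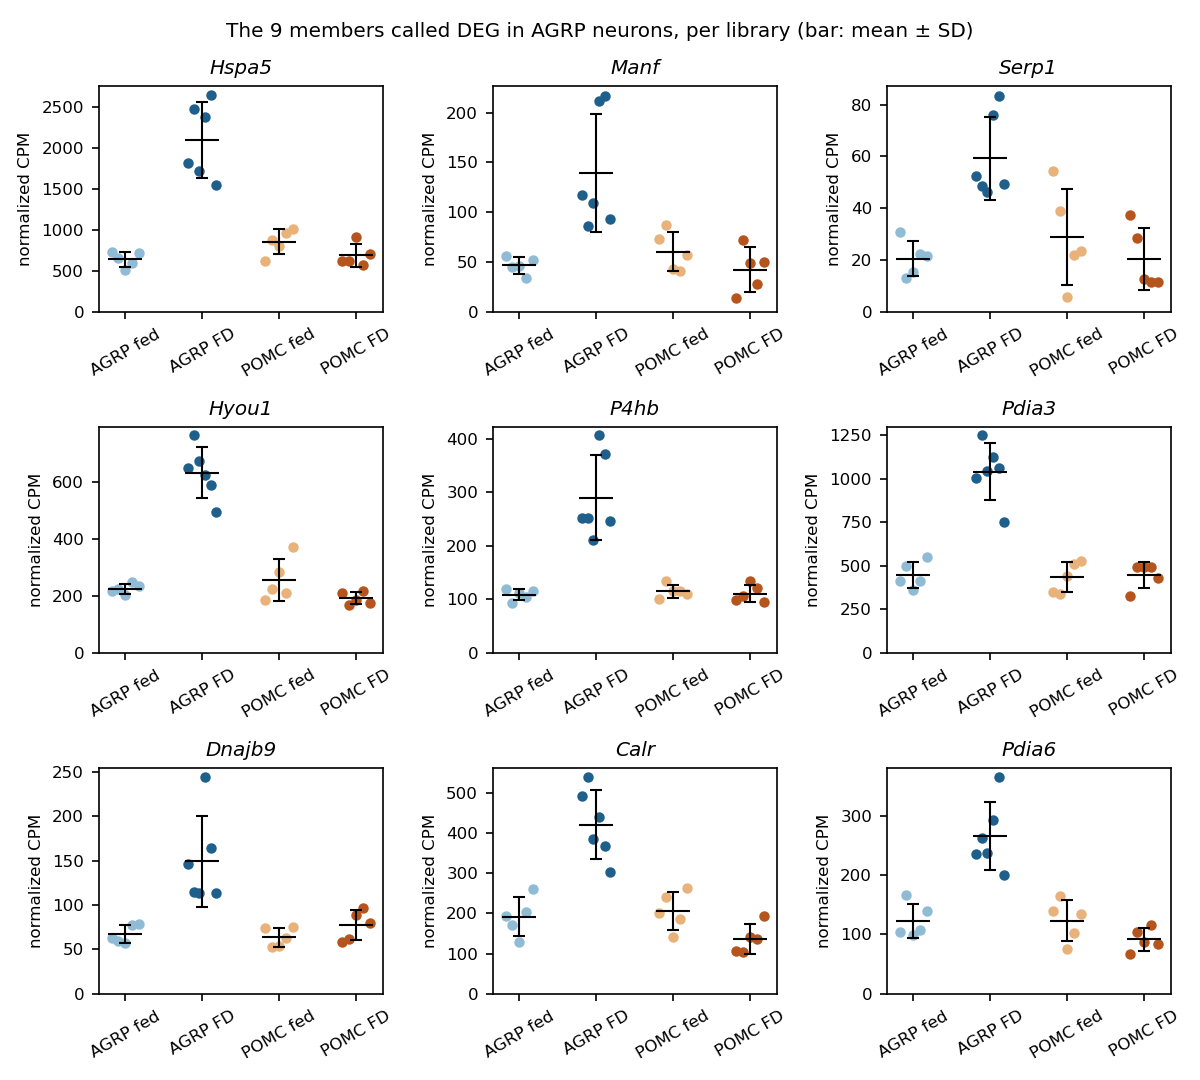
Normalized CPM (y axis, from 0) of the 9 genes called DEG in AGRP neurons, by group (x axis), with 1 point per library and bars for the mean ± SD. In each panel all 6 AGRP FD points lie above the 5 AGRP fed points, and the POMC fed and FD points overlap.

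The role of ER stress-inducible secreted or luminal proteins and a translocon stabilizer held 3 genes, with a median log2 fold change of 1.53. Genes induced by ER stress also stand in other roles, *Herpud1* among them, so this median does not describe all such genes. *Manf* (chr9:106887415-106891979), a secreted neurotrophic factor that binds BiP, was at 56.1, 45.0, 45.5, 34.3 and 51.5 in fed libraries and 86.5 to 217 (median 113) in FD libraries. *Manf* rose 2.99-fold (log2 1.58 ± 0.32, q = 0.00131), and FD replicates 4 and 5, at 212 and 217, were higher than the other FD libraries. *Serp1*, which stabilizes membrane proteins at the translocon, was at 30.6, 12.9, 15.4, 22.1 and 21.6 in fed and 46.2 to 83.3 (median 50.7) in FD libraries, a 2.88-fold rise (log2 1.53 ± 0.41, q = 0.0136). *Creld2*, a luminal protein with disulfide isomerase-like activity, was not called (log2 1.19 ± 0.43, q = 0.0764), at 5.84–12.3 in fed and 11.98–34.6 in FD libraries.

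ERAD begins with lectins and mannosidases that recognize trimmed glycans, and 2 of these 5 genes rose. *Edem3*, a mannosidase, was at 204, 199, 153, 148 and 189 in fed and 244 to 323 (median 307) in FD libraries. It rose 1.63-fold without overlap (log2 0.70 ± 0.17, q = 0.00613). *Os9*, a lectin of the ligase complex, rose 1.52-fold (log2 0.61 ± 0.19, q = 0.0389), with 1 fed library, at 102, above the lowest FD library at 100.02, and its q exceeded 0.05 (up to 0.105) without any one of AGRP FD replicates 1 to 4 and AGRP fed replicates 1 to 4. *Erlec1* (log2 0.26, q = 0.414), *Edem1* (0.34, q = 0.682) and *Edem2* (1.45 ± 0.52, q = 0.0731) were not called, and *Edem2* and *Edem1* were low, at means of 14.2 and 12.97 TPM over all libraries.

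The ERAD membrane complex comprises 8 of the genes, which encode the ligase *Syvn1* (Hrd1), its partner *Sel1l*, the derlins, the ubiquitin-domain proteins *Herpud1* and *Herpud2*, and the ligase *Rnf5*. None was called in either direction, beside 5.87% of all genes called higher and 4.43% lower, so 0 of 8 is near these shares. An unadjusted p under 0.05 was found for 1 of 8, beside 3686 of the 16513 genes tested. The median log2 fold change of the 8 genes was −0.23. *Sel1l*, the most abundant by counts, was at 274, 234, 281, 319 and 312 in fed and 201 to 318 (median 254) in FD libraries (log2 −0.17 ± 0.14, q = 0.546). *Herpud1*, itself known as a gene induced by ER stress, was at 27.03, 37.2, 47.7, 42.9 and 51.1 in fed and 20.4 to 37.2 (median 25.9) in FD libraries (log2 −0.62 ± 0.31, q = 0.245). The direction for *Herpud1* was thus opposite to that of *Hspa5*, and it did not pass the test. *Syvn1* had the only unadjusted p under 0.05 of the group (log2 0.74 ± 0.27, q = 0.082), with fed libraries from 38.5 to 101 and FD libraries from 92.4 to 162. The log2 fold changes of *Derl1* (0.10), *Derl2* (−0.30), *Herpud2* (−0.08) and *Rnf5* (−0.50) lay between these. Of the exon bases of *Rnf5*, 29.6% are shared with a gene on the opposite strand. *Derl3* held 3 counts or fewer in 2 FD libraries, and no fold is given for it.

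Extraction from the membrane uses the ATPase Vcp and its adaptors, and 2 of 4 genes rose. *Ubxn4*, an adaptor that recruits Vcp to the ER membrane, rose 1.65-fold (log2 0.72 ± 0.16, q = 0.00363), from 173–251 to 249.7–443. *Vcp* was at 198, 182, 156, 153 and 154 in fed and 207 to 301 (median 247) in FD libraries, without overlap. It rose 1.48-fold (log2 0.56 ± 0.16, q = 0.0194), and its q was 0.052, 0.0537 and 0.0553 without FD replicate 5, fed replicate 3 and fed replicate 4, respectively. *Nploc4*, a Vcp cofactor (log2 0.58 ± 0.23, q = 0.122), and *Faf2*, a membrane adaptor (0.48 ± 0.21, q = 0.159), were not called.

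Levels between genes were compared in TPM. The 44 genes spanned from 2040 TPM for *Hsp90b1*, 925 for *Hspa5*, 697 for *Pdia3* and 609 for *Canx* down to 9.18 for *Pdia5* and 2.69 for *Derl3*, as means over 21 libraries. Of the 10 genes over 150 TPM in fed AGRP neurons, 9 were called, against 10 of the 21 between 50 and 150 TPM and 3 of the 13 below 50 TPM. The spread within a group was also wide, with coefficients of variation of 9.53% to 111% among the AGRP FD libraries (median 23.7%). Median log2 fold changes were 1.04, 0.65 and 0.78 in these bands, from high to low. Among the 22 called genes, AGRP FD replicate 6 was the lowest of its group for 11 genes and FD replicate 2 the highest for 8. AGRP fed replicate 3 was the lowest of its group for 11 genes.

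**Figure D3:**
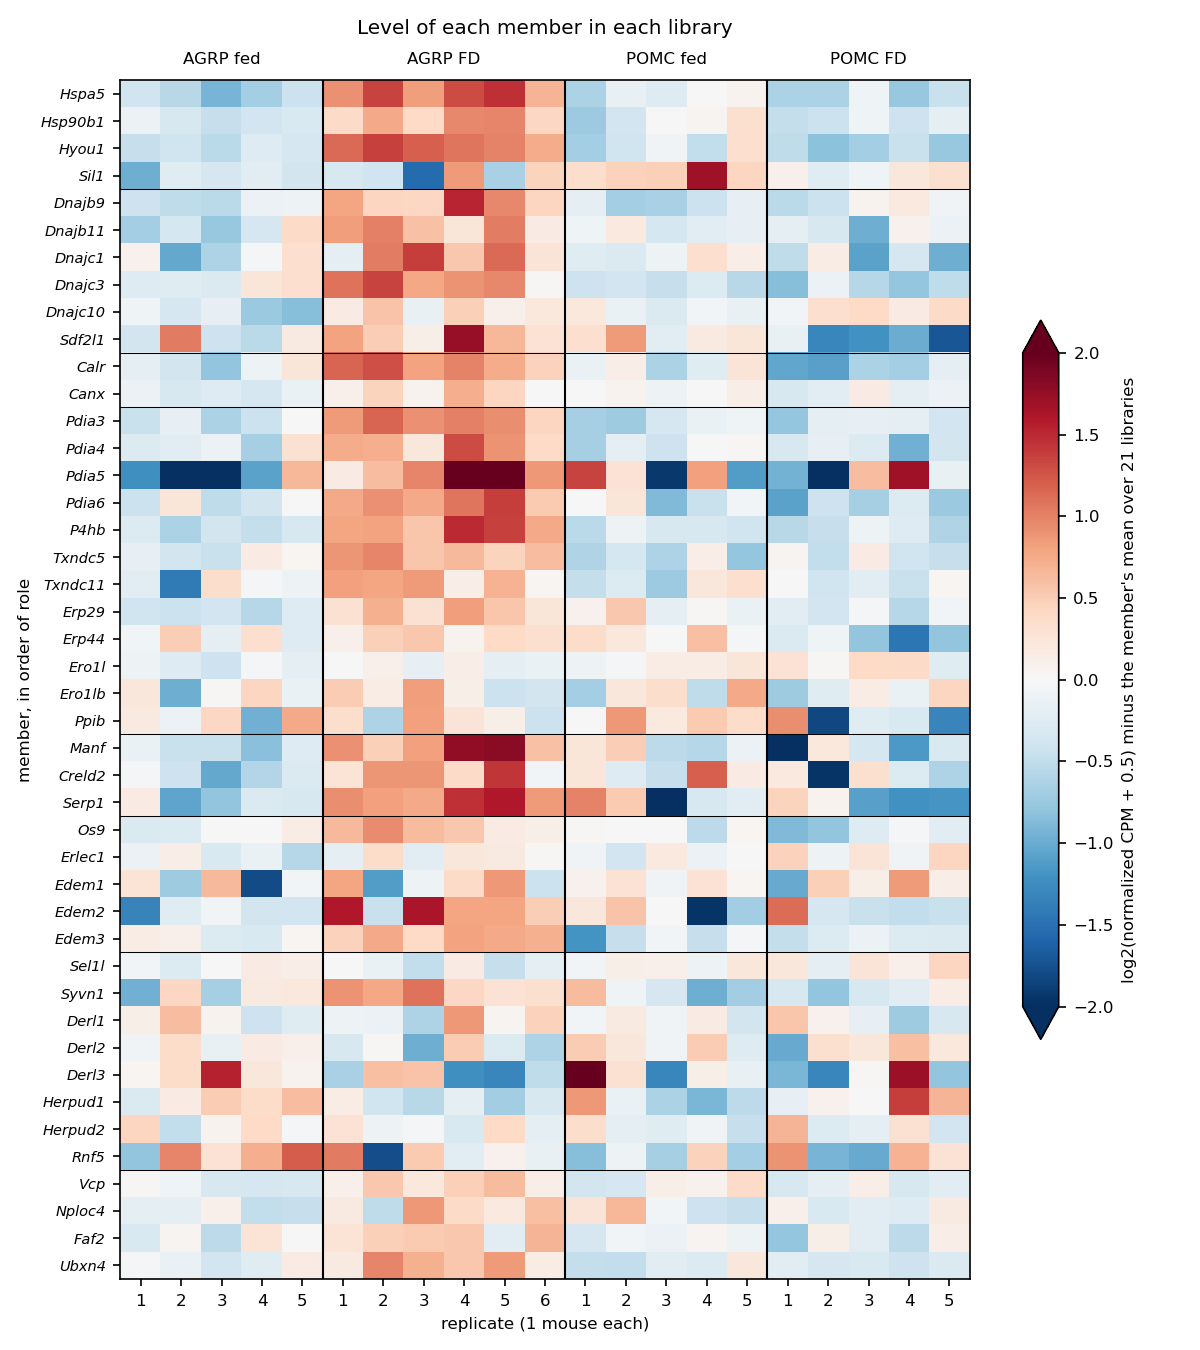
Level of each of the 44 genes (rows, in order of role) in each of the 21 libraries (columns, by group and replicate), as log2(normalized CPM + 0.5) minus the gene's mean over all libraries. The AGRP FD columns are redder in most rows from *Hspa5* to *Edem3*, and the ERAD membrane rows show no such block.

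In POMC neurons none of the 44 genes was called between FD and fed mice by edgeR or limma-voom. By edgeR 0.182% of all genes were called higher and 0.194% lower. An unadjusted p under 0.05 was found for 5 of 44, near the share over all genes (2010 of 16513). DESeq2 called 2 of the 44 lower, and no share over all genes is given for that fit. The median log2 fold change was −0.13, beside −0.02 over all genes, and 30 of 44 signs were negative, beside 8535 of 16513 over all genes. *Hspa5* was at 620.2, 870.1, 803, 958 and 1012 in fed and 621, 620.1, 912, 570.0 and 708 in FD POMC libraries, and the groups overlapped (log2 −0.31 ± 0.16, q = 0.443). The 2 genes that DESeq2 called were *Erp44* (log2 −0.84 ± 0.23, q = 0.021) and *Sdf2l1* (−1.31 ± 0.37, q = 0.0232), with edgeR q of 0.0887 and 0.107. *Erp44* was at 77.7, 70.2, 60.7, 91.5 and 59.1 in fed and 49.1, 56.9, 34.7, 21.8 and 34.6 in FD POMC libraries. It and *Sil1* were the 2 genes whose FD libraries all lay below the fed ones, which held for 1.27% of all genes. *Sdf2l1* was at 17.9–38.0 in fed and 6.01–18.7 in FD libraries, with FD replicate 1 alone within the fed range. *Calr* had a log2 fold change of −0.60 ± 0.20 (q = 0.186) and *Hyou1* of −0.42 ± 0.16 (q = 0.254), each lower in the fitted mean with overlapping libraries. *Herpud1* had the highest fitted change, 0.64 ± 0.33 (q = 0.444).

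Between fed AGRP and fed POMC neurons 1 of the 44 genes was called lower in AGRP neurons and none higher, beside 4.24% and 3.33% of all genes. The gene was *Sil1*, at 26.4, 28.8, 29.1, 67.8 and 28.0 in fed POMC libraries and 10.3–17.8 in fed AGRP libraries (log2 −1.21 ± 0.38, q = 0.0426). Without POMC fed replicate 4, the library at 67.8, its q was 0.196, and it also exceeded 0.05 without any one of the 5 AGRP fed libraries (up to 0.116) or POMC fed replicate 2 (0.0511). *Hspa5* was at 640.4 ± 91.3 CPM in fed AGRP and 852.6 ± 153 in fed POMC neurons (SD, n = 5 each; log2 −0.41 ± 0.16, q = 0.128). The median log2 difference, AGRP minus POMC, was −0.15 over the 44 genes and −0.01 over all genes.

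After food deprivation the cell types differed in 26 of the 44 genes, all higher in AGRP neurons, beside 9.28% of all genes called higher and 9.27% lower. Of these, 12 met the DEG rule, as did 4.19% of all genes in that direction, and the median log2 difference was 0.92. The comparison uses the same AGRP FD libraries as the one against AGRP fed, so the calls of the 2 comparisons are not independent of each other. Here, between fed groups and in the interaction, cell type and reporter line cannot be told apart. AGRP FD mice were at postnatal day 47 to 55 and POMC FD mice at day 54 to 56. *Hyou1* had the smallest q (log2 1.73 ± 0.16, 3.31-fold, q = 1.7e-09), at 493–763 in AGRP FD and 209, 168, 185, 217 and 175 in POMC FD libraries. *Dnajc3*, at 1.89-fold against fed, was 2.72-fold higher than in POMC FD neurons (log2 1.45 ± 0.19, q = 1.63e-06). *Dnajc10* was called against fed but not here, with AGRP FD and POMC FD libraries at 195 ± 35.1 and 195.7 ± 25.3 CPM. Conversely *Erp44* (log2 0.94, q = 0.00317), *Sdf2l1* (1.82, q = 0.000625), *Syvn1* (0.95, q = 0.0125), *Txndc11* (0.79, q = 0.0466) and *Faf2* (0.62, q = 0.0359) were called here and not against fed, and the last 2 exceeded 0.05 when any one of several libraries was left out (up to 0.102 and 0.108). The call for *Syvn1* was lost with the spike-in set (log2 0.52, q = 0.111) or the age cohort (0.64, q = 0.09) as a block.

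The difference between the 2 responses was tested as an interaction, the AGRP change less the POMC change, which uses the same libraries as the comparisons above. It was called for 19 of the 44 genes, each with the signed AGRP change above the POMC change (4.08% of all genes), and for none in the other direction (2.63%). Signs were positive for 37 of 44, and the median difference was 0.86 on the log2 scale. The largest called differences were *Manf* (log2 2.09 ± 0.46, q = 0.00438), *Serp1* (2.03 ± 0.58, q = 0.0293), *Sdf2l1* (2.03 ± 0.52, q = 0.016), *Hspa5* (2.02 ± 0.23, q = 8.6e-07) and *Hyou1* (1.91 ± 0.22, q = 1.79e-06). Of the 22 genes called in AGRP neurons, 17 were called here, and 17 of the 22 had a negative sign in POMC neurons. The other 5, *Dnajb9*, *Dnajc1*, *Dnajc10*, *Edem3* and *Txndc5*, were not called here, with q from 0.0515 for *Dnajc1* to 0.494 for *Dnajc10*. For *Erp44* (1.09 ± 0.32, q = 0.0376) and *Sdf2l1* the interaction was called although neither change alone was. In both the fall in POMC neurons (−0.86 and −1.33) was larger than the rise in AGRP neurons (0.23 and 0.70). The q of 7 genes (*Dnajb11*, *Erp44*, *Os9*, *Pdia4*, *Serp1*, *Ubxn4* and *Vcp*) exceeded 0.05, reaching 0.0953 for *Vcp*, when any one of several libraries was left out. With the spike-in set as a block 5 of the 19 interaction calls were lost, and with sorted cells as a covariate 4, all among these 7 genes. In the ERAD membrane complex no interaction was called, and *Herpud1* had the most negative value (−1.26 ± 0.46, q = 0.096).

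Other genes of the same pathways were read from 2 lists. Of 35 further ER folding and ERAD genes, 34 were in the tables and 33 were tested. In AGRP neurons their median log2 fold change was 0.37. Beside 5.87% of all genes called higher and 4.43% lower, none of the 33 fell and 7 rose. They were the oligosaccharyltransferase subunit *Stt3b* (log2 2.11 ± 0.21, q = 4.83e-08), the prolyl isomerases *Fkbp11* (2.34 ± 0.64, q = 0.0152), *Fkbp2* (1.03 ± 0.23, q = 0.00274) and *Fkbp14* (0.94 ± 0.30, q = 0.0387), the glucosidase subunit *Prkcsh* (1.02 ± 0.28, q = 0.0158), the ubiquitin-conjugating enzyme *Ube2j1* (0.94 ± 0.17, q = 0.000307) and the Hsp70-like *Hspa13* (0.65 ± 0.17, q = 0.0114). *Stt3b* went from a mean of 46.3 TPM in fed to 167 TPM in FD AGRP neurons and was at 63.2 and 56.4 TPM in fed and FD POMC neurons. In POMC neurons 0 of 33 were called, near the shares over all genes (0.182% higher and 0.194% lower). Of 12 sensors and factors of the unfolded protein response, 11 were tested. Beside 5.87% of all genes called higher, 5 of these rose in AGRP neurons: *Creb3l2* (log2 1.61, q = 9.22e-05), *Ern1* (1.42, q = 0.00381), *Ppp1r15a* (1.40, q = 0.0206), *Atf4* (1.13, q = 0.00194) and *Atf6* (1.05, q = 0.00178). *Xbp1* (0.32, q = 0.358), *Ddit3* (0.38, q = 0.729) and *Eif2ak3* (−0.89, q = 0.33) were not called, and these counts do not separate spliced from unspliced *Xbp1*.

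Summed over the 44 genes, the level was 7262, 6433, 6062, 6600 and 7269 TPM in the 5 fed AGRP libraries and 9391 to 12671 TPM (median 11189) in the 6 FD libraries. The means were 6725 ± 530.2 (SD, n = 5) and 10981 ± 1170 TPM (n = 6), without overlap, and the shares of gene counts were 0.675% and 1.14%. Without *Hspa5* the sums were 6126 ± 443.6 and 9346 ± 898 TPM. In POMC neurons they were 6615 ± 1310 (fed, n = 5) and 6341 ± 494 TPM (FD, n = 5), with overlap. The ERAD membrane genes alone were at 618 ± 74.9 TPM in fed and 492 ± 97.0 TPM in FD AGRP neurons, with overlap. The 19 non-neuronal markers summed to 68.7–126 TPM in fed AGRP, 85.0–121 in AGRP FD, 94.6–132 in fed POMC and 47.4–99.3 in POMC FD libraries. Of the tested markers of other cell types, *Aldh1l1* (astrocytes) was called higher in AGRP FD neurons, at means of 0.0258 and 1.69 TPM, as were the neuronal genes *Snap25* (log2 1.06) and *Tubb3* (0.74). The other astrocyte markers, *Aqp4* (−0.38), *Gfap* (−0.50) and *Slc1a3* (0.30), and the neuronal genes *Syt1* (−0.44) and *Rbfox3* (−0.33) were not called. *Tubb3* was called lower in POMC FD than in POMC fed neurons (−1.06, q = 0.00679). The tanycyte marker *Vim* was called higher in AGRP FD than in POMC FD neurons (1.02, q = 0.0305), as was *Tubb3* (0.60, q = 0.0272). In that comparison the neuronal gene *Rbfox3* was called lower (−1.96, q = 1.51e-06), and *Snap25* (0.10) and *Syt1* (0.42) were not called. By the interaction *Vim* (1.89, q = 0.0142), *Tubb3* (1.80, q = 0.000106) and *Snap25* (1.05, q = 0.00161) were called. The tanycyte marker *Col23a1* (−1.37, q = 0.458) and the neuronal genes *Syt1* (−0.57) and *Rbfox3* (−0.53) were not called by it. The part of these genes in the changes of the 44 genes was not tested.

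**Figure D4:**
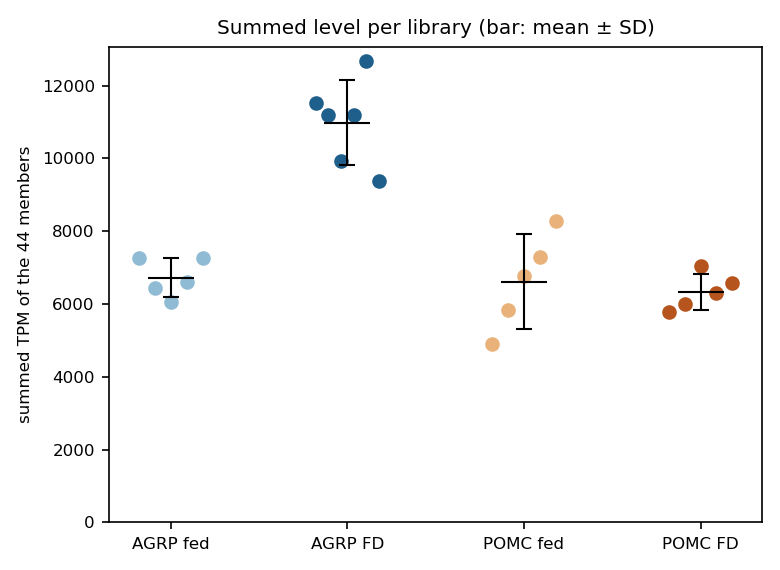
Summed TPM of the 44 genes (y axis, from 0) in each library, by group (x axis), with 1 point per library and bars for the mean ± SD. The 6 AGRP FD libraries, from 9391 to 12671 TPM, lie above all libraries of the other groups.

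ERCC spike-in RNA had been added in 3 ways (1 or 10 µl of the dilution, or a volume set by the number of cells). AGRP fed replicate 5 and AGRP FD replicate 3 received ERCC mix 2, and the other libraries mix 1. AGRP FD replicate 2 (50 cells, 1 µl) fits both the 1 µl set and the set by cells, and was placed in the latter. Within these sets the median log2 ratio of the 44 genes, FD to fed, was 0.72 (2 FD and 2 fed libraries at 10 µl), 0.88 (1 and 1 at 1 µl) and 0.69 (3 and 2 by cells) in AGRP neurons, with *Hspa5* at 1.75, 1.86 and 1.61. For POMC neurons the set at 1 µl alone held both conditions (3 FD, 3 fed), with a median of −0.14. Scaling all libraries by spike-in counts and sorted cells, in place of all gene counts, ended all 22 calls in AGRP neurons (0 called) and all 19 interaction calls. The median log2 fold change of the 44 genes in AGRP neurons was then 0.63, beside −0.08 for all genes. Under that scaling 10 of the 26 differences between AGRP FD and POMC FD were called, while the median of all genes in that comparison moved to 1.10. ERCC counts came to 0.219% to 22.6% of the gene counts of a library. Gene counts per ERCC count, multiplied by the µl added and divided by the sorted cells, differed between sets. They were 0.567 to 0.838 at 10 µl, 1.54 to 2.57 at 1 µl and 3.19 to 9.11 by cells. The 2 highest values by cells, 6.74 and 9.11, were those of the libraries with ERCC mix 2. This scaling thus differed by set, and 3 AGRP FD libraries but no POMC FD library were placed in the set by cells. It gives no reliable level per cell, and the part of the sets in the lost calls was not tested. Values here are therefore relative to the other transcripts of a library.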

How the data were processed

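RNA from hand-sorted neurons was amplified and sequenced by the authors without molecular identifiers. Per the sources, the authors trimmed reads (cutadapt 1.7.1), removed abundant sequences (Bowtie2 2.1.0), mapped the rest to mm10 (STAR 2.4.0i) and assigned them without strand to Gencode VM4 basic genes (HTSeq 0.6.1p1). The deposited files hold counts per gene, with the ERCC spike-ins, and TPM values scaled by the authors. The 44 genes and the other lists were chosen with earlier results of these data known.

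Counts were tested with edgeR 4.0.16 (R 4.3.3): TMM scaling over gene rows (spike-ins and the row of reads in no feature, 24.2% to 52.1% of all entries of a library, were left out), genes over 1 CPM in at least 3 libraries (16513 of 35266), and 1 quasi-likelihood model of 4 groups and 21 libraries. Tests were two-sided, in 5 comparisons, and q was adjusted over all genes tested in each. SE is the log2 fold change divided by the root of F. Each library is 1 mouse. limma-voom (limma 3.58.1), DESeq2 1.42.0 and 8 other settings were run as alternatives, and 1, the POMC set with equal spike-in, was added after the data were seen, as were the ratios within spike-in sets. The fit was tested on simulated data. Counting error only is covered by the 3-count floor. By rule any of the 44 genes may be named, and other genes come only from the lists. Exon sharing was read from Gencode M21 basic (GRCm38). Promoter sequences come from RefSeq, and 7 genes without a window are *Hyou1*, *Manf*, *Erp29*, *Sil1*, *Erlec1*, *Derl1* and *Rnf5*.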

Additional observations from a re-analysis of the deposited data

Results flagged for a closer look

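Within groups, a library stood apart from the others in 11 cases by Dixon's criterion, of 180 tested (each of the 44 genes and their summed TPM in each of the 4 groups), and chance alone flags about 1 in 20. They were *Sil1* in AGRP fed replicate 1 (10.3 normalized CPM, next 16.0) and in POMC fed replicate 4 (67.8, next 29.1), *Dnajb11* in AGRP fed replicate 5 (85.4, next 51.7), *Sdf2l1* in AGRP FD replicate 4 (71.4, next 36.9), *Pdia5* in AGRP fed replicate 5 (5.09, next 1.18), *Os9* in POMC fed replicate 4 (63.7, next 92.4), *Edem2* in POMC FD replicate 1 (19.0, next 6.63) and *Vcp* in POMC FD replicate 3 (212.3, next 169.2). *Derl3* stood apart in 3 groups, in AGRP fed replicate 3 (3.10), POMC fed replicate 1 (6.79) and POMC FD replicate 4 (3.53), and other libraries of the 2 POMC groups held 3 counts or fewer for it.

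The change in AGRP neurons differed from that in POMC neurons for 19 genes by the interaction test (log2, AGRP change less POMC change). The values were 2.02 for *Hspa5*, 1.20 for *Hsp90b1*, 1.91 for *Hyou1*, 1.13 for *Dnajb11*, 1.04 for *Dnajc3*, 2.03 for *Sdf2l1*, 1.74 for *Calr* and 0.69 for *Canx*. For the isomerases and thioredoxin-fold proteins they were 1.18 for *Pdia3*, 1.10 for *Pdia4*, 1.54 for *Pdia6*, 1.46 for *P4hb*, 1.24 for *Erp29* and 1.09 for *Erp44*. The others were 2.09 for *Manf*, 2.03 for *Serp1*, 0.93 for *Os9*, 0.74 for *Vcp* and 0.81 for *Ubxn4*.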

How the results depend on the processing

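Apart from the spike-in scaling, the number of the 44 genes called in AGRP neurons stayed within 19 to 26 in every alternative, and 18 of the 22 were called in each of them (the exceptions were *Dnajc1*, *Os9*, *Txndc5* and *Vcp*). No called gene reversed its direction in any alternative. Leaving out 1 library gave 19 to 23 calls in AGRP neurons (8 to 13 DEG), 0 in POMC neurons, 0 to 2 between fed groups, 24 to 26 between FD groups and 13 to 20 for the interaction. Of the 19 interaction calls 12 were made in each alternative other than the spike-in scaling, and of the 26 calls between FD groups 23 were.

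Scaling by spike-in and sorted cells gave 0 calls and 0 DEG in AGRP neurons, 0 between fed groups, 10 between FD groups and 0 for the interaction. DESeq2 gave 2 calls in POMC neurons and 2 between fed groups, where limma-voom, no count filter, the replicate block, the age cohort and the sorted-cell covariate gave 0. The POMC libraries of 1 spike-in set alone gave 0 calls and 5 genes with an unadjusted p under 0.05, and no share over all genes is given for that fit. Same-numbered libraries of different groups did not deviate together (correlations from −0.122 to 0.0511), so numbers do not pair mice, and the replicate block otherwise gave 22 calls in AGRP neurons, 0 in POMC neurons, 25 between FD groups and 18 for the interaction. Low counts limit *Derl3* and *Pdia5*.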
